A study of Mus musculus with 3 samples.

Results

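The 32 genes described here encode collagen chains, laminin chains, nidogens, fibrillins, fibulins and proteoglycans of the extracellular matrix, together with periostin. They were taken as a list of named genes, matched by symbol through GENCODE release M21 (GRCm38), and all 32 were found among the 50686 genes of the deposited count table. The RNA of 3 samples of cultured B16F10 cells, a line derived from a mouse melanoma, was sequenced. The samples were cells transduced with an shRNA against LSD1 (shLSD1), with an shRNA against JMJD2C (shJMJD2C) or with a scrambled shRNA (shControl), with 1 sample each. LSD1 and JMJD2C are histone demethylases. All 3 samples were therefore cells carrying a short hairpin construct, and the labels do not say whether pools or clones were used. The deposited tables have 3 value columns whose names appear in no sample label, so no column was given to a treatment. The columns are called 1, 2 and 3 by their place in the tables, which says nothing of treatment. No comparison of a knockdown with the control was made, and no test across replicates exists for any value below.

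The extracellular matrix has contrasting forms. Basement membranes are thin sheets built from a laminin network and a collagen IV network, joined by nidogens and by the heparan sulphate proteoglycans perlecan and agrin. Interstitial matrix is built around fibrils of collagens I, III and V, with collagen VI, fibrillin microfibrils and small leucine-rich proteoglycans such as decorin and lumican, and is made largely by fibroblasts. Laminins are trimers of an alpha, a beta and a gamma chain, and melanoma cells adhere to them through integrins and dystroglycan.

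The columns held 17924497, 17987991 and 17879580 counts. Column 1 stood apart from the others across the transcriptome. Over 10935 genes with a mean count of at least 50, Pearson's r of log2 CPM (counts scaled to a common library total) across genes was 0.844 between columns 1 and 2, 0.845 between columns 1 and 3 and 0.99 between columns 2 and 3, where genes are not independent replicates. Mitochondrial genes took 2.52%, 1.25% and 0.843% of the counts in columns 1, 2 and 3. All 8 melanocyte markers were at or above 1 TPM (the length-corrected equivalent, from counts divided by exon length and scaled to a common total) in every column, with summed levels of 20933, 32302 and 28668 TPM. Of 8 fibroblast markers, 1 reached that level in every column, and the summed fibroblast marker level was 10.5, 9.97 and 10.1 TPM. That marker was Pdgfrb, at 8.47 to 8.96 TPM. Pdgfra stood at 1.64, 0.724 and 1.01 TPM. Thy1, Fap, Acta2 and Dpt had at most 5 counts in a column, and Tcf21 and Twist2 had no count. None of 6 endothelial markers reached 1 TPM in every column, with sums of 0.675, 5.61 and 3.0 TPM. Most of that sum was Vwf, with 47, 349 and 156 counts (0.608, 4.64 and 2.10 TPM). Pecam1 had 2, 25 and 24 counts, and Cdh5 and Emcn had none. Of 6 leukocyte markers, Lyz2 alone did so, at 1.11, 5.52 and 8.04 TPM, while Ptprc, Cd3e and Itgam had no count. None of 6 epithelial markers did, and their sums were 0.327, 1.05 and 0.685 TPM. The part of the fibroblast, endothelial, leukocyte and epithelial transcripts in the matrix results was not tested.

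In B16F10 cells, the summed level of the basement membrane genes on the list was above that of the fibrillar collagens in every column. At a level of at least 1 TPM in all 3 columns, 14 of the 32 members (43.8%) were detected, against 49.5% of 21764 protein-coding genes. The members were thus detected about as often as genes in general. Basement membrane genes made up 10 of the 14 detected members, and 10 of the 14 basement membrane genes on the list were detected (71.4%). Of 5 fibrillar collagen chains, 2 were detected (40%), Col1a1 and Col5a1. These counts depend on which chains were listed. With 8 other laminin and collagen IV chains, 11 of 22 basement membrane genes were detected (50%), and with 6 other fibrillar chains, 4 of 11 fibrillar genes were (36.4%). None of 4 chains of collagens VI and VIII was detected. Of 4 fibrillins and fibulins, Fbln1 was detected, and of the 5 remaining members, Postn was. The other 18 members were below 1 TPM in every column, the highest of them being Vcan at 0.871 TPM in column 2. Of these 18, 3 had a mean count of at least 10, and the remaining 15 had no more than 11 counts in any column. In bulk RNA, fewer cells with a transcript and less transcript per cell cannot be told apart.

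**Figure D1:**
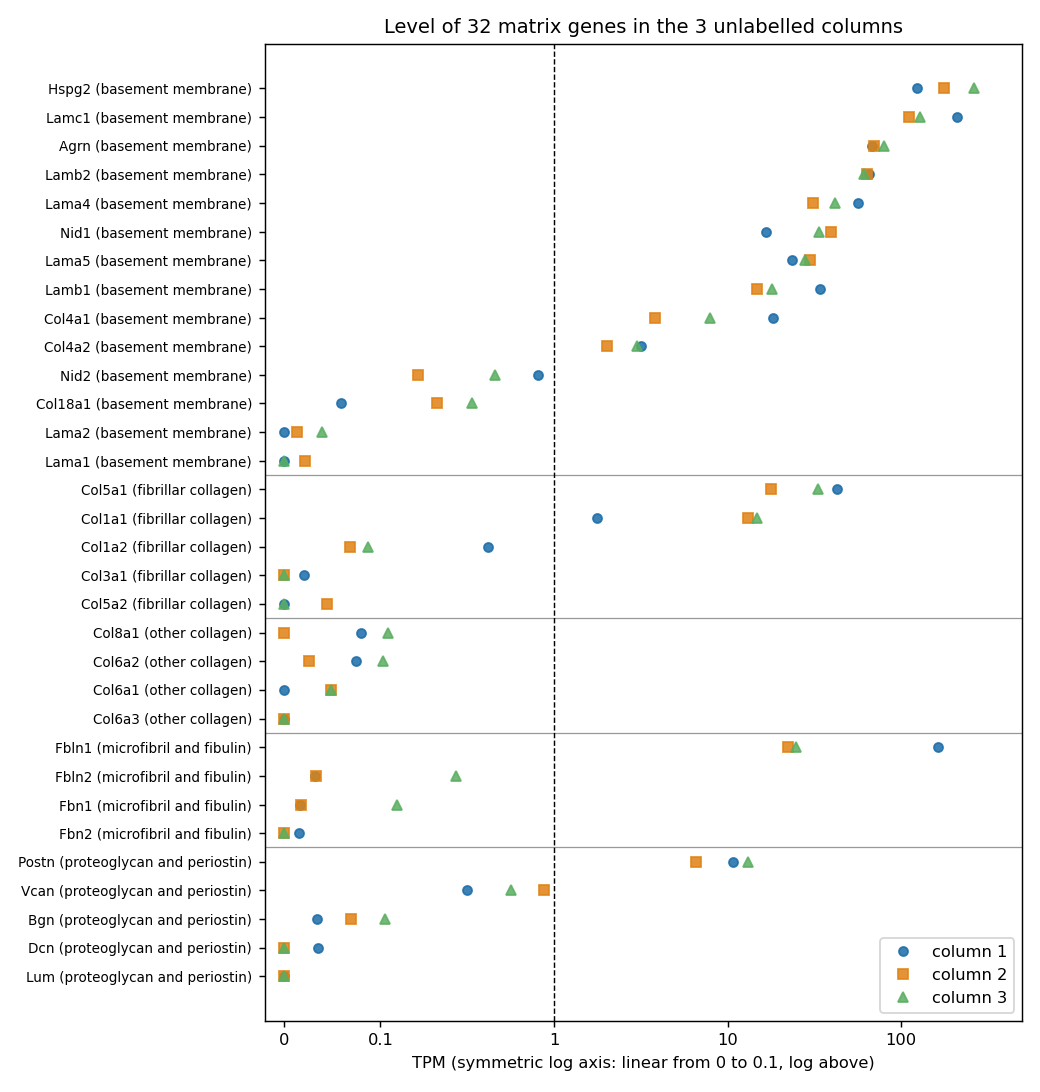
Level of each of the 32 genes in TPM (horizontal symmetric log axis, linear from 0 to 0.1) in columns 1, 2 and 3, grouped by class and ordered by median level, with a dashed line at 1 TPM. The 10 highest basement membrane genes lie right of the line, while only Col5a1, Col1a1, Fbln1 and Postn do so among the other classes.

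Summed over each class, the basement membrane genes reached 620, 543 and 664 TPM in columns 1, 2 and 3, and the fibrillar collagens reached 45.2, 31.0 and 48.2 TPM. The basement membrane sum, over 14 genes, was 13.7, 17.5 and 13.8 times the fibrillar sum, over 5 genes. A sum grows with the number of genes listed. With the related chains outside the list added to both classes, the sums were 643, 561 and 686 TPM against 63.3, 67.9 and 94.5 TPM, and the ratio was 10.1, 8.26 and 7.26. Basement membrane transcripts were 73.9%, 89.9% and 88.4% of the summed level of all 32 members. The lower share in column 1 went with Fbln1, whose class reached 162 TPM there and 22.5 and 25.2 TPM in columns 2 and 3. Fbln1 was counted outside the basement membrane class, although its protein also occurs in basement membranes. The lower share in column 1 therefore depends on this assignment. Collagens VI and VIII together gave 0.155, 0.0744 and 0.263 TPM.

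**Figure D2:**
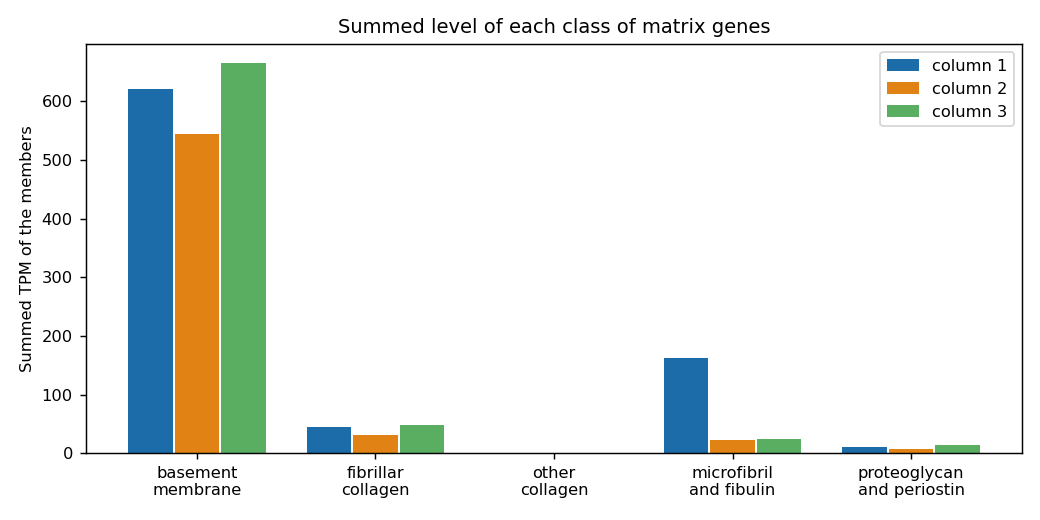
Summed TPM (vertical axis, from 0) of the members of each class in columns 1, 2 and 3, with 1 bar per column and no error bars because each bar is 1 library. Basement membrane bars stand at 543 to 664 TPM and fibrillar collagen bars at 31.0 to 48.2 TPM.

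Hspg2, which encodes perlecan, the large heparan sulphate proteoglycan of basement membranes, had the highest median level of the list. The gene lies at chr4:137468769-137570630 on the plus strand (GRCm38, as are the gene positions below). It stood at 123, 177 and 262 TPM in columns 1, 2 and 3, and its median ranked 1050th of 21764 protein-coding genes. Its level followed the order of the columns, with the intervals for counting error apart at 463 to 483, 647 to 671 and 957 to 986 CPM (95% exact Poisson intervals, which cover counting error only, since reads without molecular identifiers are not independent molecules). Column 3 was 2.05 times column 1 in CPM (95% exact interval of counting error 2.0 to 2.11), and 1.89 times with TMM scaling and 1.87 times with DESeq2 size factors. Agrn, which encodes agrin, another heparan sulphate proteoglycan of basement membranes, stood at 67.6, 69.4 and 79.9 TPM. Its highest over lowest CPM was 1.15 (1.09 to 1.20), so it varied far less than Hspg2.

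The laminin chains detected were alpha 4, alpha 5, beta 1, beta 2 and gamma 1. Lamc1 (chr1:153218922-153332786, minus strand), the gamma 1 chain shared by most laminins, stood at 211, 111 and 128 TPM, the highest member in column 1 and second to Hspg2 in columns 2 and 3. Among the alpha chains, which carry most of the cell-binding sites, Lama4 (chr10:38965515-39110188, plus strand) stood at 56.5, 31.1 and 41.4 TPM. Lama5 stood at 23.7, 29.7 and 28.0 TPM. Lama4 exceeded Lama5 in TPM in every column, by 2.39, 1.05 and 1.48 times. These ratios depend on the length used and would be larger with that of the longest transcript. Lama4 has 12068 bases by exon union and 6046 in its longest transcript, whereas Lama5 has 11388 by both. Lama1 and Lama2, the alpha chains of embryonic and of muscle and nerve basement membranes, had 1 and 4 counts over all columns together.

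The beta chains differed in how much they varied. Lamb2, the beta 2 chain, stood at 65.5, 63.9 and 60.8 TPM, and its CPM in the highest column was 1.12 times that in the lowest (1.04 to 1.19). Lamb1 (chr12:31265234-31329644, plus strand), the beta 1 chain, stood at 34.3, 14.7 and 18 TPM, with column 1 at 2.40 times column 2 in CPM (2.19 to 2.62). The order of Lamb2 above Lamb1 held in every column, by 1.91, 4.34 and 3.37 times in TPM. These ratios would be smaller with the length of the longest transcript. Lamb1 has 9917 bases by exon union and 5784 in its longest transcript, and Lamb2 has 6082 and 5629. In CPM, Lamb2 stood at 107, 101 and 95.8 and Lamb1 at 91.2, 38.1 and 46.3. Lamc1 and Lama4 showed the same order of columns as Lamb1, highest in column 1 and lowest in column 2. Their highest over lowest CPM was 1.95 (1.88 to 2.02) for Lamc1 and 1.87 (1.76 to 1.98) for Lama4. With TMM scaling these ratios were 2.13 and 2.04. Summed in TPM, the alpha chains gave 80.1, 60.9 and 69.4, the beta chains 99.8, 78.7 and 78.8, and Lamc1 alone gave more than either sum in every column.

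Nidogens link the laminin and collagen IV networks. Nid1 (chr13:13437551-13512269, plus strand) stood at 16.7, 39.6 and 33.7 TPM, lowest in column 1, opposite to the laminin chains Lamb1, Lamc1 and Lama4. Column 2 was 2.30 times column 1 in CPM (2.08 to 2.55). The laminin chain Lama5 had the same order of columns as Nid1, with column 2 at 1.22 times column 1 (1.13 to 1.32). Nid2, the paralog of Nid1, was below 1 TPM throughout, at 0.804, 0.165 and 0.459 TPM from 20, 4 and 11 counts. Its exons share 437 bases with Rtraf on the opposite strand, which had 1753, 1225 and 1019 counts, and whether reads were counted by strand is not given in the sources used here.

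Both collagen IV chains on the list were below each of the 5 detected laminin chains in every column. Col4a1, the alpha 1 chain of collagen IV, stood at 18.3, 3.80 and 7.93 TPM, and Col4a2, the alpha 2 chain, at 3.17, 2.03 and 3.0 TPM. The chains assemble into heterotrimers and their genes lie head to head, yet Col4a1 varied 4.96-fold in CPM (4.11 to 6.02) and Col4a2 1.61-fold (1.16 to 2.24). The Col4a1 to Col4a2 ratio in TPM was 5.77, 1.87 and 2.64, with Col4a1 above Col4a2 in every column. Both were highest in column 1 and lowest in column 2. Col18a1, which encodes the collagen from which endostatin is released, had 2, 7 and 11 counts, at most 0.338 TPM.

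In RefSeq on GRCm38.p6, Col4a1 starts at chr8:11312826 on the minus strand and Col4a2 at chr8:11312805 on the plus strand, so that the first 22 bases of the transcripts lie opposite each other. Promoter windows of 300 bases, from 250 before the start to 50 after it, were available for 23 of the 32 members. The windows of Col4a1 and Col4a2 share 78 bases (chr8:11312777-11312854). Both are printed here because these neighbours differed in spread. They are followed by the windows of Hspg2 (chr4:137468553-137468852, plus strand), the member with the highest median level, and Col3a1 (chr1:45311288-45311587, plus strand), a fibrillar collagen with 1 count in all. The Col4a1 window is chr8:11312777-11313076 on the minus strand and the Col4a2 window chr8:11312555-11312854 on the plus strand. Each runs 5′ to 3′ along its gene, and capitals mark CpG dinucleotides.
Col4a1: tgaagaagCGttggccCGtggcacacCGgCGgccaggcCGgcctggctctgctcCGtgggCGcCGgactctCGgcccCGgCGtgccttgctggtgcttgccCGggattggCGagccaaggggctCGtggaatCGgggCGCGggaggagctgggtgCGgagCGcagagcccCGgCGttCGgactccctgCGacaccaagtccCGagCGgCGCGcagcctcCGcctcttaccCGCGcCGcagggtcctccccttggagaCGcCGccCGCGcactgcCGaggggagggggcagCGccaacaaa
Col4a2: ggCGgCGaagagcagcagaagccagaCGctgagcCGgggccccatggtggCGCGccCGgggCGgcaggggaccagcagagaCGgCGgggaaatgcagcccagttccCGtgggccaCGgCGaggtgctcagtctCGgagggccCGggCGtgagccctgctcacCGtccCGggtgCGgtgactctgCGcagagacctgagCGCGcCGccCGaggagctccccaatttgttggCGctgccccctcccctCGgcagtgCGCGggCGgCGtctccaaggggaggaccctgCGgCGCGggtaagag
Hspg2: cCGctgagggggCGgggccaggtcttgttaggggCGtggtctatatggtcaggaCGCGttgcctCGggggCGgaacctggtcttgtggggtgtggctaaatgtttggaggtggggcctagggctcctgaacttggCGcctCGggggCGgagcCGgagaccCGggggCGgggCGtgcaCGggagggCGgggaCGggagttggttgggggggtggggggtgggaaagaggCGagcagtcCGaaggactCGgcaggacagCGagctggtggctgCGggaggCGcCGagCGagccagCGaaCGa
Col3a1: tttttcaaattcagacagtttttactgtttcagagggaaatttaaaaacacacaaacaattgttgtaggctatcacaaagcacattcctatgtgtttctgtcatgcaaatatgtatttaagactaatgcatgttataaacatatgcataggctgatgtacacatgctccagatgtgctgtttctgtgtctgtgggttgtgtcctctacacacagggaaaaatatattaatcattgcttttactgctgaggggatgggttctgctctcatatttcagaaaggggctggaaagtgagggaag

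The windows held 37 CpG dinucleotides for Col4a1, 33 for Col4a2, 27 for Hspg2 and 0 for Col3a1. Taking the mean over a gene's windows, the median was 24 CpG (range 4 to 37) for the 11 detected members with a window and 10.5 (range 0 to 14) for the 12 members below 1 TPM, against 7 for the 27025 genes of the table. Lamb2, with 4, and Postn, with 4.5, were the detected members within the range of the others. By single windows the sets overlapped more, with a median of 22 (range 4 to 42) over 14 windows of detected members and 9.5 (range 0 to 16) over 14 windows of the others. The windows of Agrn held 11 and 42, and those of Fbln1 12 and 24. The counts were a description of these windows and do not show what sets the level of a gene. The genes of the table were not split by detection, so whether the difference is particular to the members was not tested. Searched on both strands, GGGCGG was in a window of 9 of the 11 detected and 9 of the 12 other members, and in 35.7% of all windows. CCAAT was found in 5 of 11 and 3 of 12 members and in 37.4% of all windows. TATAAA was found in 1 of 11 and 1 of 12 members, Postn and Col3a1, and in 13.6% of all windows. A member with more than 1 window was counted once if any of its windows matched.

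**Figure D3:**
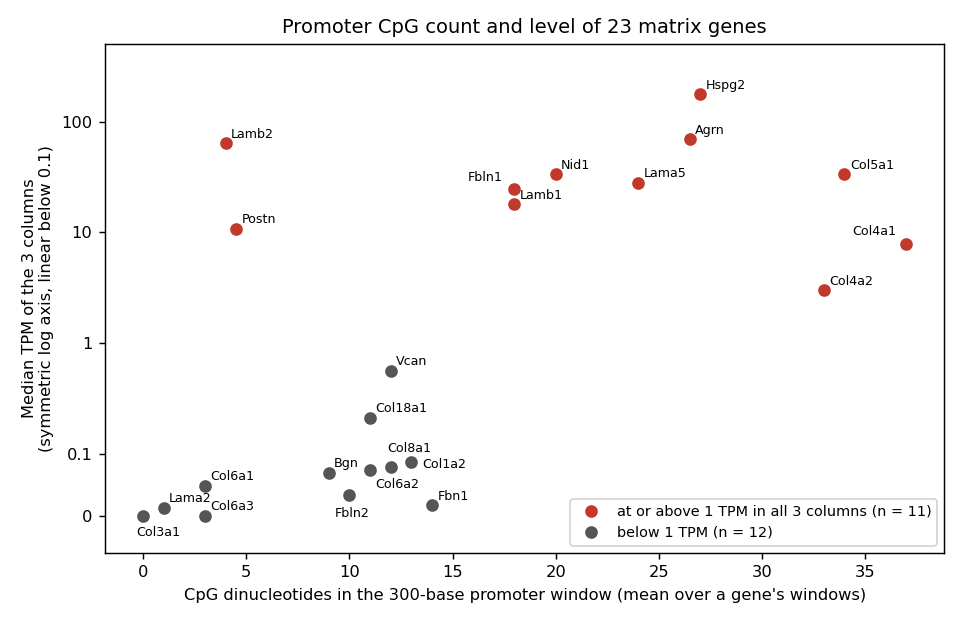
CpG dinucleotides per 300-base promoter window (horizontal axis, mean over a gene's windows) against the median TPM of the 3 columns (vertical symmetric log axis, linear below 0.1) for 23 members, with 11 members at or above 1 TPM in every column and 12 below it. Apart from Lamb2 and Postn, the detected members, by their mean over windows, lie at 18 CpG or more and the others at 14 or fewer.

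Among the 5 fibrillar chains on the list, the level came almost wholly from Col5a1 and Col1a1. Col5a1 (chr2:27886425-28039514, plus strand), the alpha 1 chain of collagen V, a minor fibril component that sets fibril width, stood at 43, 17.7 and 33.3 TPM. It had the same order of columns as Col4a1, and column 1 was 2.50 times column 2 in CPM (2.29 to 2.73). Its usual partner chain Col5a2 had 2 counts in all. Col1a1 (chr11:94936224-94953042, plus strand), the alpha 1 chain of collagen I, stood at 1.77, 13.1 and 14.8 TPM from 56, 404 and 449 counts. Column 3 was 8.04 times column 1 in CPM (6.08 to 10.8), 7.4 times with TMM scaling and 7.32 times with DESeq2 size factors.

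Col1a2, the other chain of collagen I, did not follow Col1a1. It had 25, 4 and 5 counts, or 0.418, 0.0687 and 0.0869 TPM, so that it was highest where Col1a1 was lowest. Column 1 was 6.27 times column 2 in CPM, with a wide interval of 2.17 to 24.8. The TPM ratio of Col1a1 to Col1a2 was 4.24, 191 and 170 in columns 1, 2 and 3. These ratios are imprecise, as they rest on the few Col1a2 counts, and they would be smaller with the length of the longest transcript. Col1a2 has 12426 bases by exon union and 5348 in its longest transcript, and Col1a1 has 6563 and 5930. Col3a1, the collagen of elastic tissues, had 1 count over all columns.

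Among the members outside these networks, Fbln1 had the largest difference in level between columns. Fbln1 (chr15:85205949-85286535, plus strand) encodes fibulin 1, a calcium-binding glycoprotein of basement membranes and elastic fibres. It stood at 162, 22.4 and 24.8 TPM, with column 1 at 7.45 times column 2 in CPM (6.76 to 8.23), and column 3 at 1.10 times column 2 (0.968 to 1.25). With TMM scaling column 1 was 8.15 times column 2, and with DESeq2 size factors 8.18 times. Fbln1 and Col1a1 thus had the widest ratios of the members with a mean count of at least 10, in an order that changed with the scaling. Fbln2 had at most 8 counts in a column. Fbn1 and Fbn2, the fibrillins that form microfibrils, had at most 7 and 1.

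Postn, which encodes periostin, a matricellular protein that binds integrins and collagen, stood at 10.8, 6.62 and 13.1 TPM. Column 3 was 1.96 times column 2 in CPM (1.69 to 2.28). Vcan, which encodes the large chondroitin sulphate proteoglycan versican, had 22, 59 and 38 counts, or 0.316, 0.871 and 0.567 TPM. Column 2 was 2.67 times column 1 in CPM (1.61 to 4.58). The small leucine-rich proteoglycans were near or at 0, with 1, 2 and 3 counts for Bgn, 1 count in all for Dcn and none for Lum. Of the collagen VI chains, Col6a3 had no count, Col6a1 had 2 and Col6a2 had 8 over all columns, and Col8a1 had 7. A count of 0 allows up to 0.167 to 0.168 CPM in these columns by the rule of 3 counts of the total, and up to 0.205 to 0.206 CPM as the upper end of the 95% exact Poisson interval.

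By median TPM, the 14 detected members ran from Hspg2, Lamc1, Agrn, Lamb2, Lama4, Nid1 and Col5a1 to Lama5, Fbln1, Lamb1, Col1a1, Postn, Col4a1 and Col4a2. Of the 13 pairs of neighbours in this order, 4 did not overlap in their ranges over the columns. These were Lamc1 and Agrn, Agrn and Lamb2, Lamb2 and Lama4, and Col4a1 and Col4a2. The order of the other neighbours changed with the column or was within the spread over columns. The order also rests on exon-union lengths. Lama4 has 12068 bases by exon union and 6046 in its longest transcript, and Lamb2 has 6082 and 5629. In CPM, with no length correction, Lama4 stood at 183, 97.8 and 129 and Lamb2 at 107, 101 and 95.8, so their ranges overlapped.

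The spread over columns was examined in the 17 members with a mean count of at least 10. Between the highest and the lowest column, 10 of these 17 members (58.8%) differed 2-fold or more in CPM, against 38.5% of 13343 genes with the same mean count. The median ratio was 2.30 for the members and 1.71 for the 13288 of those genes with a count in every column. The 10 were Col1a1, Fbln1, Col1a2, Nid2, Col4a1, Vcan, Col5a1, Lamb1, Nid1 and Hspg2. Of these, Col1a2 (25, 4 and 5 counts) and Nid2 (20, 4 and 11) reached the mean count of 10 only through column 1, their highest. Their entry into the 17 and their ratio past 2-fold are therefore not independent. Most of the spread lay between column 1 and the others. Without column 1, 2 of 17 members passed 2-fold (11.8%), against 2.58% of all genes. Without column 2, 5 of 17 did (29.4%), which was below the 33.8% of all genes. Column 2 was the lowest for 11 of the 17 members and for 22.2% of all genes. Without column 3, 9 of 17 did (52.9%), against 32.7% of all genes. Hspg2 fell under 2-fold with TMM scaling or DESeq2 size factors, while Lama4 and Lamc1 passed it. In the deposited regularised log values, so called after the file name, 3 of the 17 spanned 1 log2 unit or more, namely Fbln1 (1.73), Col1a1 (1.33) and Col4a1 (1.28).

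Column 1 held the highest CPM for 10 of the 17 members and the lowest for 5. The 10 include Col1a2 and Nid2, which reached the mean count of 10 only through column 1. Among all 13343 genes, column 1 held the highest for 40.8% and the lowest for 50.9%. The median gene was lower in column 1 than in column 2 by a log2 ratio of -0.12 in CPM, and by 0.01 the other way with TMM scaling. The highest and the lowest column of each of the 17 members were the same with total-count and with TMM scaling.

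**Figure D4:**
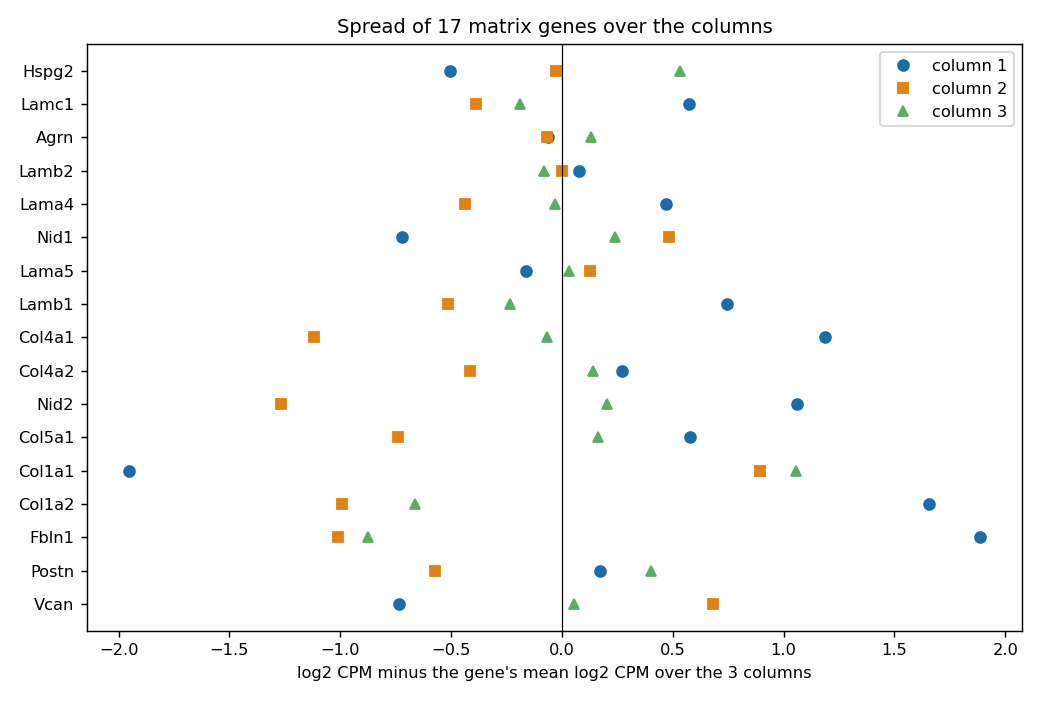
Log2 CPM of each of the 17 members with a mean count of at least 10, minus the gene's own mean over the 3 columns (horizontal axis), with 1 point per column. Column 1 lies at the right end for 10 members, among them Fbln1, Col1a2 and Col4a1, and at the left end for 5, among them Col1a1, Nid1 and Hspg2.

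Columns 2 and 3 were close. Of the 17 members, 2 differed 2-fold or more in CPM between them, Col4a1 and Nid2, against 2.55% of 13339 genes with a count in both. Column 3 was 2.07 times column 2 for Col4a1 (1.68 to 2.57) and 2.77 times for Nid2 (0.820 to 11.9). The median ratio of the higher to the lower of these columns was 1.26 for the members and 1.12 for the 13339 genes. Postn (1.96), Col5a1 (1.87) and Hspg2 (1.47) were also higher in column 3 than in column 2. So were Col4a2 (1.47), Lama4 (1.32), Lamb1 (1.22), Lamc1 (1.15) and Agrn (1.15), with lower bounds of 1.05 to 1.24. Nid1 (0.846) and Vcan (0.648) were lower in column 3 than in column 2, with upper bounds of 0.918 and 0.991.

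**Figure D5:**
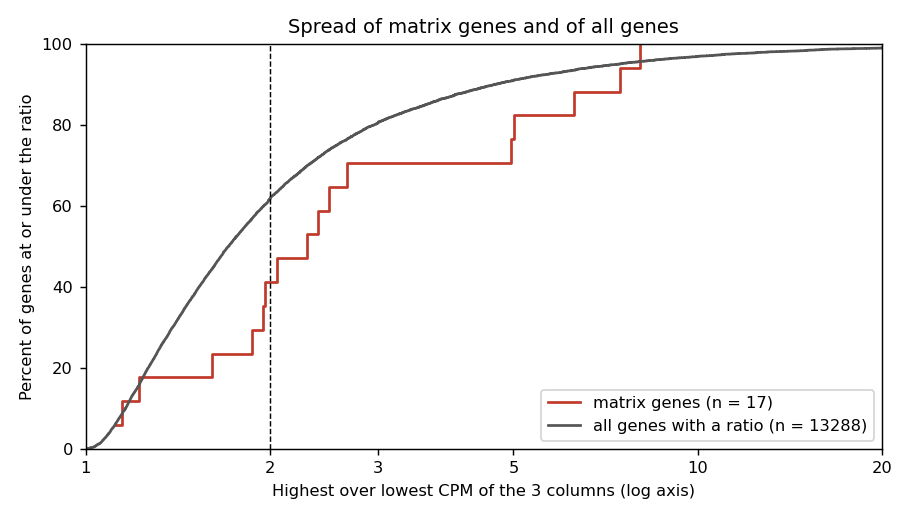
Percent of genes (vertical axis) whose highest over lowest CPM of the 3 columns is at or under the value on the horizontal log axis, for 17 matrix genes and for 13288 genes with a mean count of at least 10 and a count in every column, with a dashed line at 2-fold. The matrix curve lies below the other from 1.5-fold to 5-fold, and its median is 2.30 against 1.71.

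Related chains outside the list filled some of the gaps in it. Of 8 other laminin and collagen IV chains, 1 was detected. This was the collagen IV alpha 5 chain gene Col4a5, at 21.2, 15.9 and 19.1 TPM, above Col4a1 in TPM in every column. In column 1, Col4a5 had 685 counts and Col4a1 657, and their CPM intervals overlapped (35.4 to 41.2 and 33.9 to 39.6). Col4a3, of the collagen IV network of kidney and lung, stood at 0.0209, 0.814 and 0.845 TPM. Of 6 other fibrillar collagen chains, 2 were detected. Col5a3, a further collagen V chain, stood at 16.3, 24.1 and 32.4 TPM, and Col11a2, a collagen XI chain, at 1.06, 11.5 and 11.7 TPM, lowest in column 1 as was Col1a1.

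Of 22 genes that process collagen, 17 (77.3%) were at or above 1 TPM in every column, against 49.5% of protein-coding genes. P4hb, a subunit of prolyl 4-hydroxylase, stood at 1747, 1346 and 1641 TPM. Serpinh1, which encodes the collagen chaperone HSP47, stood at 1208, 550 and 599 TPM, and column 1 was 2.26 times column 2 in CPM. P4ha3 and the crosslinking enzyme gene Lox had no count, a choice of genes made after their values were seen. Other members of their families were detected. P4ha1 stood at 125, 215 and 253 TPM and P4ha2 at 31.8, 34.2 and 39.3 TPM. Loxl3 stood at 48.5, 30.3 and 40.2 TPM and Loxl2 at 11.9, 5.45 and 6.91 TPM. Loxl1 and Loxl4 were below 1 TPM in every column. Of the 18 processing genes with a mean count of at least 10, 6 differed 2-fold or more between columns (33.3%), against 38.5% of all genes.

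Of 24 matrix receptors, 18 were detected (75%), against 49.5% of protein-coding genes. Itgb1, the integrin beta 1 chain that pairs with most matrix-binding alpha chains, stood at 918, 630 and 780 TPM. Dag1, which encodes dystroglycan, a receptor for laminin, perlecan and agrin, stood at 464, 361 and 451 TPM. The collagen receptor kinase gene Ddr1 stood at 111, 375 and 431 TPM, with column 1 the lowest. Of 21 receptors with a mean count of at least 10, 8 passed 2-fold (38.1%), close to the 38.5% of all genes.

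Of 18 genes of matrix degradation, 12 were detected (66.7%), against 49.5% of protein-coding genes. Timp2, an inhibitor of metalloproteinases, stood at 563, 286 and 447 TPM. Adamts1, a protease of large proteoglycans, stood at 332, 209 and 271 TPM, and Mmp14, a membrane-bound collagenase, at 203, 115 and 133 TPM. These 3 genes were highest in column 1 and lowest in column 2, the order also shown by Lamc1, Lama4, Lamb1, Col4a1 and Col5a1. Of 15 such genes with a mean count of at least 10, 7 passed 2-fold (46.7%), against 38.5% of all genes.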

How the data were processed

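The authors deposited whole-number counts per Ensembl gene and a table of log2 values whose file name calls them RLOG. Per the submitters' processing notes, STAR, SAMtools 0.18, DESeq2 and the GRCm38 build were used, with no roles stated. The counting program, annotation and strand setting were not given in the sources used here. Neither table's 3 value columns match a label, so all were kept as columns of B16F10 cells with no treatment. Of 50686 identifiers, 50376 were found in GENCODE M21. TPM used exon-union lengths and served to compare genes; CPM by total count served to compare columns. Intervals are 95% exact Poisson intervals for counts and exact conditional binomial intervals for ratios. Python 3.11.15, scipy 1.17.1, edgeR 4.0.16 (TMM) and DESeq2 1.42.0 (size factors) were used, and no differential test was run. Levels and spread were tested on simulated data. Members at or above 10 TPM in a column, or past 2-fold with a mean count of at least 10, are given in every column; Col4a2 was added as the neighbour of Col4a1. Other lists are given by counts and their highest genes. The members and lists were chosen with earlier results of these data known.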

Additional observations from a re-analysis of the deposited data

How the results depend on the processing

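No paired analysis was possible because each treatment had 1 library and no column was matched to a treatment. Depth limits members with few counts: 15 of the 32 had a mean count under 10. The number of detected members was 11 at 5 TPM, 15 at 1 CPM and 14 with the length of the longest transcript, and 14 without any 1 column. Basement membrane members detected were 8, 10 and 10 under those settings and 10 without any 1 column; fibrillar collagens detected were 1 at 5 TPM, where Col1a1 in column 1 was too low, and 2 otherwise. The median basement membrane share of the members' level was 92.1% in CPM, with no length correction, against 88.4% in TPM, 78.6% without Col18a1, Hspg2 and Agrn (66.2% in column 1), and 81.1% to 89.1% with a column left out. The median fibrillar sum was 51.0 TPM over protein-coding genes outside the mitochondrial genome, against 45.2 TPM, 35.5 TPM with the longest transcript's length, and 38.1 to 46.7 TPM with a column left out. With related chains outside the list, an alternative chosen after seeing the data, the median ratio of the basement membrane to the fibrillar sum was 8.26, against 13.8. Of the 17 members examined for spread, 10 passed 2-fold (38.5% of all genes did), 14 passed 1.5-fold (62.4%) and 5 passed 3-fold (19.9%). In the deposited RLOG values 3 passed 2-fold, with a median ratio of 1.48, against 7.88% of all genes; the cause was not tested. With TMM scaling or DESeq2 size factors 11 passed (38.3% and 38.4%). With a column left out, 2 to 9 passed (2.58% to 33.8%), and the median ratio was 1.26 to 2.30; the lowest values were those without column 1.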
